A study of Nothobranchius furzeri with 20 samples.

Results

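Muscle of 10 swim-tunnel fish aged 27 weeks was compared with muscle of 5 unexercised fish aged 9 weeks, by RNA sequencing. All fish were male Nothobranchius furzeri, the turquoise killifish, and of 1 strain, MZM-04/10p. The comparison took every library that the labels gave as 27 weeks, swim-tunnel and muscle and every library given as 9 weeks, none and muscle, 15 of the 20 libraries of the series. The remaining 5 came from fish aged 9 weeks that had been in the swim tunnel, where water flow makes a fish swim in place. Their mean did not enter the contrast, but they shared its fit, and so its gene filter, scaling and estimate of variation. They were placed between its ends for the genes that differed. Age and the swim label changed together in this contrast, and no unexercised 27-week fish were analysed here, so age and exercise cannot be told apart. The labels gave no duration of swimming and no animal identity, so p-values set the difference against the variation between these libraries only.

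Nothobranchius furzeri passes from hatching to old age within months, and muscle is one of the tissues in which its ageing is studied. Fish trunk muscle is mostly made of fast glycolytic fibres, with a smaller slow oxidative portion that is used in steady swimming. Its RNA is dominated by transcripts of contractile, calcium-handling and energy-supplying proteins, while fibroblasts, endothelium, nerve and blood cells add lesser amounts. A lower level in such a tissue sample can come from fewer cells of a type or from less RNA per cell, and these cannot be told apart here. The deposited tables named genes by identifiers only, and none of the 26739 identifiers occurred among the 38438 genes of the RefSeq table of assembly NfurGRZ-RIMD1. The tissue label could therefore not be checked against marker genes, and the results are given for groups of genes and for 4 identifiers.

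Library totals ran from 25549097 to 34331958 counts in 27-week fish, from 24333849 to 38007162 in 9-week swim fish and from 29504450 to 38571967 in 9-week unexercised fish. The 27-week libraries fell into 2 sets. On the first principal component, which held 37.3% of the variance, libraries 1 to 5 lay between -81.8 and -67.6, libraries 6 to 10 between -19.2 and 13.5, and all 9-week libraries between 18.1 and 56.4. Libraries 1 to 5 had scaling factors (TMM, which corrects for a few genes that take up much of a library) of 1.11 to 1.24, and libraries 6 to 10 had factors of 0.777 to 0.983. The factors were 0.889 to 1.08 in 9-week swim and 0.917 to 1.16 in 9-week unexercised libraries. The labels of all 27-week libraries were alike, and the sets were seen in these data only. The numbers of genes called higher and lower are therefore given with all libraries and without either set of 5. Counts by fold size, by lack of overlap, under the naming rule and of single libraries past the midpoint were made with all libraries only. Sample codes ran in separate stretches for each group, so a batch that followed them cannot be told apart from age or exercise. Libraries were numbered in the order of these codes, so each of the 2 sets of 27-week libraries was also a stretch of codes. Whether a batch lay behind the sets was not tested.

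Of 16653 genes tested, 6675 (40.1%) differed between 27-week swim and 9-week unexercised fish (edgeR quasi-likelihood test, two-sided, Benjamini-Hochberg adjusted p under 0.05; such genes are named called genes below). There were 3529 called genes higher at 27 weeks (21.2% of genes tested) and 3146 lower (18.9%). With the 2 groups of the contrast fitted alone, 6394 genes were called, 3403 higher and 2991 lower. The log2 fold change, as 27-week swim over 9-week unexercised, had a median of 0.93 among higher, -0.79 among lower and 0.06 among all tested genes. Differences of at least 2-fold were found for 1568 higher genes (9.42% of genes tested) and 985 lower genes (5.91%). The higher side reached further, with 246 genes changed at least 4-fold and 56 at least 8-fold, against 62 and 14 on the lower side. At the small end, 661 higher and 848 lower called genes had changed by less than 1.5-fold. No called gene had 0 counts in every library of either group, so each fold change rests on counts at both ends.

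The balance of 52.9% higher genes is not a stable feature of the contrast. It was 45.4% (1929 higher, 2319 lower) without 27-week libraries 1 to 5 and 48.3% (4463 higher, 4775 lower) without libraries 6 to 10. It was 60.0% with upper-quartile scaling and 48.6% on own library totals with no scaling factors. Of the 3529 higher genes, 1583 were called higher again without libraries 1 to 5 and 3155 without libraries 6 to 10. Of the 3146 lower genes, 2046 and 3044 were called lower again in these fits. In all, 1 gene turned its called direction without libraries 1 to 5 and 0 without libraries 6 to 10.

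The libraries of the contrast did not overlap at all for 2249 genes in TMM-scaled CPM, that is, counts scaled to equal library size. In 885 of these (5.31% of genes tested) every 27-week library lay above every unexercised 9-week library, and in 1364 (8.19%) every one lay below. On own library totals the numbers were 552 (3.31%) and 1426 (8.56%), with 485 and 1154 genes found on both scales. Lower genes made up more of the separated genes on either scale. Among called genes the groups were separate for 882 of 3529 higher genes and for 1361 of 3146 lower genes. The separated called genes had a median log2 fold change of 1.16 when higher and -0.97 when lower.

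Nfu_g_1_013796 (1899 bases) had the largest increase of all genes under the naming rule, which asked for libraries that do not overlap and at least 5 CPM on average in the higher group. In 27-week fish it ran from 0.457 to 41.2 CPM of the own library total, with a median of 4.43 CPM and 13 to 1093 counts. In 9-week swim fish it stood at 0.413, 1.395, 0.474, 0.343 and 0.123 CPM in libraries 1 to 5. Unexercised 9-week libraries 1 to 5 had 0.271, 0.207, 0.0947, 0.385 and 0.401 CPM, or 3 to 14 counts. The 27-week libraries spread over a wide range, with libraries 1 and 7 just above the unexercised fish and library 3 far above the rest. The means were 10.3 ± 12.7 CPM (SD, n = 10) at 27 weeks and 0.272 ± 0.127 CPM (SD, n = 5) in unexercised fish. The log2 fold change was 5.13 (SE 0.96, edgeR adjusted p = 0.000411).

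Nfu_g_1_018199 (2186 bases) was the next of the higher genes and varied less. It had 2.01 CPM in the lowest, 6.94 CPM in the median and 12.5 CPM in the highest 27-week library. The 9-week swim libraries 1 to 5 had 1.72, 0.843, 0.684, 0.515 and 0.0822 CPM, all below the lowest 27-week library. Unexercised 9-week libraries 1 to 5 had 0.271, 0.207, 0.0947, 0.160 and 0.458 CPM. Swim libraries 1 to 4 lay above every unexercised library, and swim library 5, with 2 counts, lay below them. The log2 fold change between 27-week swim and 9-week unexercised fish was 4.73 (SE 0.59, edgeR adjusted p = 9.28e-06).

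Nfu_g_1_010818 (898 bases) led the lower genes. It had 0.101, 0.428 and 0.837 CPM in the lowest, median and highest 27-week library, from 3 to 25 counts. The 9-week swim libraries 1 to 5 had 2.42, 1.57, 4.47, 9.37 and 5.34 CPM, and the unexercised ones had 5.59, 7.10, 9.88, 12.3 and 5.87 CPM. All 27-week libraries lay below all 9-week libraries of either kind, while swim library 4 lay within the unexercised range and the other 4 below it. The log2 fold change was -4.19 (SE 0.34, edgeR adjusted p = 2.38e-07) between 27-week swim and 9-week unexercised fish.

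Nfu_g_1_017109 (2214 bases) followed, with 0.117, 1.33 and 4.46 CPM in the lowest, median and highest 27-week library. The 9-week swim libraries 1 to 5 had 4.96, 4.97, 15.3, 6.59 and 13.2 CPM, and the unexercised ones had 44.7, 24.6, 6.47, 44.6 and 33.2 CPM. Every 27-week library lay below every 9-week library, and all swim libraries lay below the unexercised ones other than library 3. The log2 fold change was -4.14 (SE 0.60, edgeR adjusted p = 3.59e-05), -3.57 when 27-week libraries 1 to 5 were left out and -5.06 when 6 to 10 were. All 4 named genes also differed between 27-week and 9-week swim fish, by log2 fold changes of 4.01, 3.03, -3.38 and -2.45 in the order given (edgeR adjusted p = 0.00203, 0.000232, 3.71e-06 and 0.00383). The same 27-week libraries had picked these genes, so that test is not independent of the choice. Between 9-week swim and unexercised fish the values were 1.12, 1.70, -0.80 and -1.68, and none of them passed the test (edgeR adjusted p = 0.695, 0.216, 0.357 and 0.278).

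**Figure D1:**
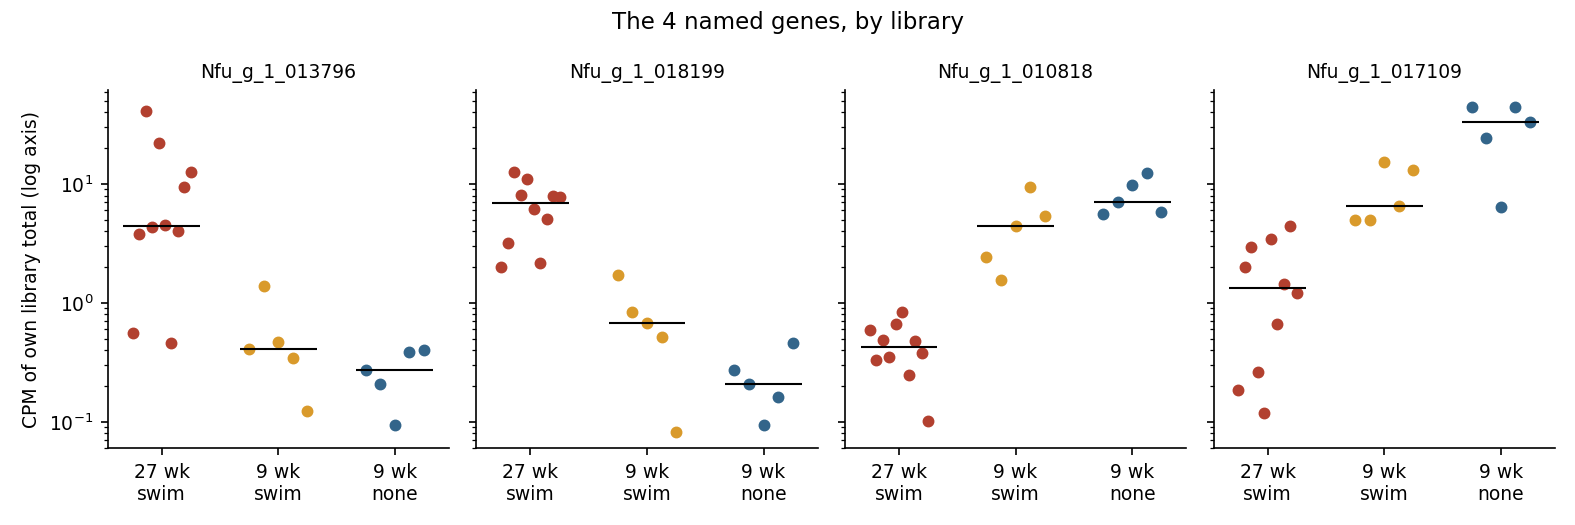
CPM of the own library total (log axis) for the 4 named genes, 1 point per library and a line at the group median, with 27-week swim, 9-week swim and 9-week unexercised fish from left to right. The naming rule asked that no 27-week library overlap an unexercised one, and the genes were picked for their change. The 9-week swim medians of 0.413, 0.684, 4.47 and 6.59 CPM lie between the medians of the other groups.

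The naming rule was met by 377 higher and 1260 lower genes. Over the 10 genes that came next on the higher side, the log2 fold change ran from 3.34 to 4.45, and all 10 also differed between 27-week and 9-week swim fish. Their 9-week swim libraries overlapped the unexercised range in 9 of the 10 genes and the 27-week range in 6. Over the 10 next lower genes it ran from -3.83 to -2.81, with 8 that also differed between 27-week and 9-week swim fish. There the swim libraries overlapped the unexercised range in 8 genes and the 27-week range in 5. No such counts are given over all tested genes, so the overlaps on both sides only describe the picked genes. Median levels of these lower genes reached 60.4 CPM in 27-week, 249 CPM in 9-week swim and 536 CPM in unexercised libraries, so abundant transcripts were among them. The genes of both sides were picked with the 27-week libraries that also entered the comparison with 9-week swim fish. Their calls in that comparison are therefore not independent of the choice. Of all called genes, 53.3% of the higher and 68.1% of the lower ones passed it in the same direction.

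Called genes were spread unevenly over abundance. The tested genes were divided into 5 classes of rising mean abundance. From the first class to the last, the number called higher was 509, 872, 901, 739 and 508, and the number called lower was 149, 335, 586, 850 and 1226. In the highest class, whose median gene had 39.8 CPM, 36.8% of genes were called lower and 15.3% higher. In the lowest class, with a median of 0.526 CPM, 4.47% were called lower and 15.3% higher. These counts changed with the 27-week libraries used. When libraries 1 to 5 were left out, 144, 415, 450, 422 and 498 genes were higher and 69, 198, 393, 666 and 993 were lower from the first class to the last, so that the most abundant class then held the most higher genes. When libraries 6 to 10 were left out, 612, 1099, 1172, 976 and 600 were higher and 296, 579, 911, 1218 and 1769 were lower. The median log2 fold change of all genes in a class was 0.22, 0.23, 0.11, -0.02 and -0.20. Without 27-week libraries 1 to 5 it was 0.10, 0.12, 0.03, -0.06 and -0.13, and without libraries 6 to 10 it was 0.24, 0.26, 0.11, -0.07 and -0.42. The sign of the second highest class was positive with upper-quartile scaling (0.05) and without a low-count filter (0.01), whereas the other 4 classes kept their sign in these fits and in the other scalings. The classes of the main fit were used throughout and held only genes that had passed its filter. The fit without a filter therefore cannot show whether genes of low abundance that the filter removed follow the same pattern.

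**Figure D2:**
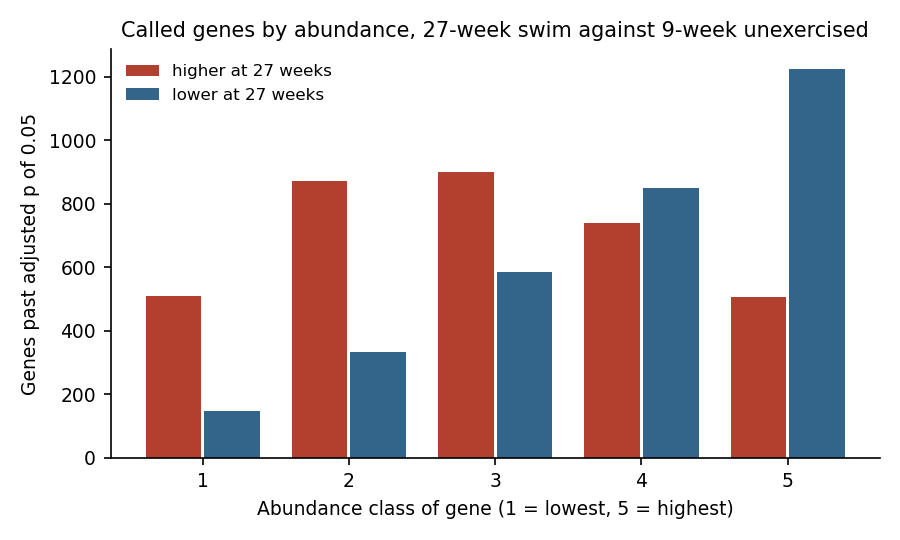
Number of called genes that were higher (left bars) and lower (right bars) in 27-week swim than in 9-week unexercised fish, in 5 abundance classes of equal size, the least abundant genes on the left. Higher genes outnumber lower ones in the 3 lowest classes (509 against 149 in class 1), and lower genes outnumber higher ones in class 5 (1226 against 508).

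Called genes of both directions had similar lengths. The median length was 2888 bases for higher, 2665 for lower and 2880 for genes that were not called. Log2 fold change and length had a Spearman correlation of 0.00311 over 16650 genes, which are no independent replicates and share the same libraries. In 5 classes of length the share of genes called higher ran from 20.5% to 22.8%, and the share called lower from 17.5% to 21.1%.

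A few transcripts carried much of what the higher genes gained. All higher genes together took 20.2% ± 2.65 (SD, n = 10) of counts in 27-week fish, 12.02% ± 2.17 (SD, n = 5) in 9-week swim fish and 9.51% ± 0.727 (SD, n = 5) in unexercised fish. Of the difference of 10.7 percentage points between 27-week and unexercised fish, 7 genes made up 50%, and all 7 were among the 50 most abundant genes of the study. The summed share of these 7 genes was 7.44% in the lowest, 9.87% in the median and 11.3% in the highest 27-week library. In the 9-week swim libraries 1 to 5 it was 6.28%, 6.45%, 6.47%, 3.69% and 4.80%, and in the unexercised libraries 4.84%, 4.47%, 4.58%, 3.11% and 4.48%. Swim libraries 1 to 3 lay above all unexercised libraries and below all 27-week libraries, and swim libraries 4 and 5 lay within the unexercised range. These 7 genes were picked for their change, so their levels are a description.

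The loss on the lower side was spread over more genes. The lower genes took 13.3% ± 1.48 (SD, n = 10) of counts at 27 weeks, 20.5% ± 3.31 (SD, n = 5) in 9-week swim and 24.5% ± 2.503 (SD, n = 5) in 9-week unexercised fish. It took 63 genes to make up 50% of the difference of -11.2 percentage points, and 10 of them were among the 50 most abundant. The largest change of a single lower gene was -0.56 points, while 1 higher gene alone gained 1.43 points. Together the 63 genes held between 5.39% and 8.32% of counts in 27-week libraries, with a median of 6.51%. They held 8.44%, 9.01%, 8.23%, 11.99% and 10.99% in 9-week swim libraries 1 to 5 and 11.7%, 11.7%, 11.998%, 13.7% and 11.7% in unexercised libraries 1 to 5. Swim library 4 lay within the unexercised range, and the other 4 swim libraries lay below it. These 63 genes were also picked for their change, so their levels are a description.

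Levels of the called genes varied more between 27-week libraries than between the others. Higher genes had a median SD of log2 CPM of 0.45 between 27-week, 0.35 between 9-week swim and 0.28 between unexercised libraries. Lower genes had 0.38, 0.25 and 0.22 in the same groups. Genes that were not called had a like order, with 0.43, 0.35 and 0.30. The 27-week values take in both sets of libraries, and the spread within a set was not measured.

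For each called gene, the mean of the 9-week swim libraries was placed on a scale on which 0 is the mean of unexercised 9-week fish and 1 the mean of 27-week fish, in log2 CPM. The 3529 higher genes had a median position of 0.288 and the 3146 lower genes one of 0.173, so the 9-week swim fish lay nearer to the unexercised fish of their own age. For 2714 higher genes (76.9%) and 2180 lower genes (69.3%) the swim mean lay between the other means. It lay beyond the unexercised mean, away from 27 weeks, for 688 higher and 882 lower genes, and beyond the 27-week mean for 3.6% of higher and 2.67% of lower genes. The middle 50% of positions ran from 0.0676 to 0.506 for higher and from -0.0263 to 0.399 for lower genes. Without 27-week libraries 1 to 5 the medians were 0.284 and 0.220, and without libraries 6 to 10 they were 0.207 and 0.112. They moved more with the swim libraries kept, a choice made after seeing the data. Without swim libraries 1 to 3 the medians were 0.106 for higher and 0.0249 for lower genes, and without swim libraries 4 and 5 they were 0.395 and 0.2996.

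**Figure D3:**
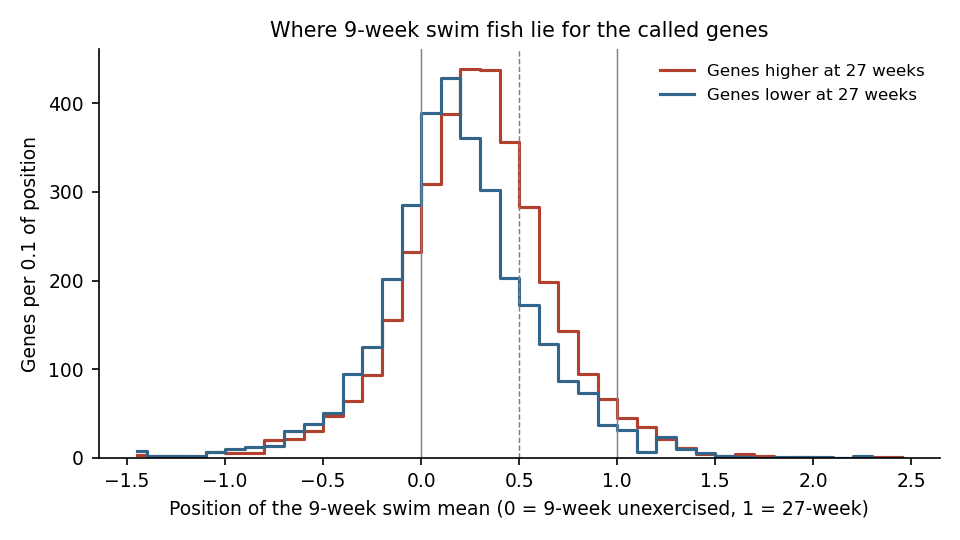
Number of called genes (vertical axis) by the position of the 9-week swim mean (horizontal axis, in steps of 0.1) between the unexercised 9-week mean at 0 and the 27-week mean at 1, for higher and lower genes, with values beyond the axis counted in the outermost steps. Most genes lie between the ends and short of the dashed midpoint, with medians of 0.288 for higher and 0.173 for lower genes.

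The median position lay short of the midpoint at every size of difference and in every abundance class. It was 0.318, 0.265 and 0.236 for higher genes changed less than 2-fold, 2- to 4-fold and at least 4-fold, and 0.165, 0.178 and 0.242 for the lower genes. Across the 5 abundance classes it ran from 0.236 to 0.309 for higher and from 0.139 to 0.287 for lower genes.

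Measured against the ranges of single libraries, the swim mean fell within the unexercised range alone for 989 higher and 1367 lower genes. It fell within the 27-week range alone for 1081 higher and 708 lower genes, and within both for 1041 and 492 where the ranges overlapped. In the gap between ranges lay 292 higher and 383 lower genes, with median log2 fold changes of 1.44 and -1.09. Only genes with separate ranges can lie in such a gap, so larger differences go with this class by its definition. All called genes with separate ranges had medians of 1.16 and -0.97. Beyond the unexercised range lay 122 higher and 194 lower genes, and beyond the 27-week range 4 and 2. The 27-week range is drawn from 10 libraries and the unexercised range from 5, so the ranges do not weigh alike. Counts within the unexercised range alone also changed with the 27-week libraries used, as given at the end. Among the called genes whose ranges were separate, 351 of 882 higher genes had the swim mean within the unexercised range, 292 in the gap and 217 within the 27-week range, and for the 1361 lower genes these numbers were 709, 383 and 206.

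The single 9-week swim libraries were also set against the midpoint, gene by gene. At the midpoint or short of it in all 5 swim libraries lay 848 higher and 1416 lower genes. Past the midpoint in all 5 lay 140 higher and 61 lower genes. In the other genes the swim libraries were divided between both sides. Variation of single genes can divide like libraries too, and the same count was not made for unexercised libraries.

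The libraries at both ends also chose the called genes, so the position of each library was measured with that library left out of the test and of the group means. Left-out 27-week libraries had a mean position of 0.959 ± 0.359 (SD, n = 10) over higher genes, 9-week swim libraries 0.281 ± 0.153 (SD, n = 5) and unexercised libraries 0.0667 ± 0.0682 (SD, n = 5). Over lower genes the values were 0.973 ± 0.371, 0.179 ± 0.178 and 0.0298 ± 0.120 with the same numbers of libraries. Swim libraries 1 to 3 stood at 0.388, 0.410 and 0.368 over higher genes and at 0.402, 0.280 and 0.216 over lower genes. Swim libraries 4 and 5 stood at 0.169 and 0.0690 over higher and at 0.0211 and -0.0227 over lower genes. Unexercised libraries ran from -0.0171 to 0.131 and from -0.134 to 0.150. Swim libraries 1 to 3 thus lay beyond all unexercised libraries in both sets of genes, and swim library 5 lay within their range in both. Swim library 4 lay just above that range over higher genes and within it over lower genes.

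The 27-week libraries were split in the same measure. Libraries 1 to 5 had positions of 1.05 to 1.42 over higher and 1.25 to 1.44 over lower genes. Libraries 6 to 10 had positions of 0.450 to 0.745 over higher and 0.458 to 0.827 over lower genes. Of the higher genes, 79.2% to 94.8% were past the midpoint in libraries 1 to 5 and 45.5% to 65.7% in libraries 6 to 10. The lowest 27-week library, number 6, lay at 0.450 over higher genes, close to the highest 9-week swim library at 0.410, and at 0.458 over lower genes, against 0.402.

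**Figure D4:**
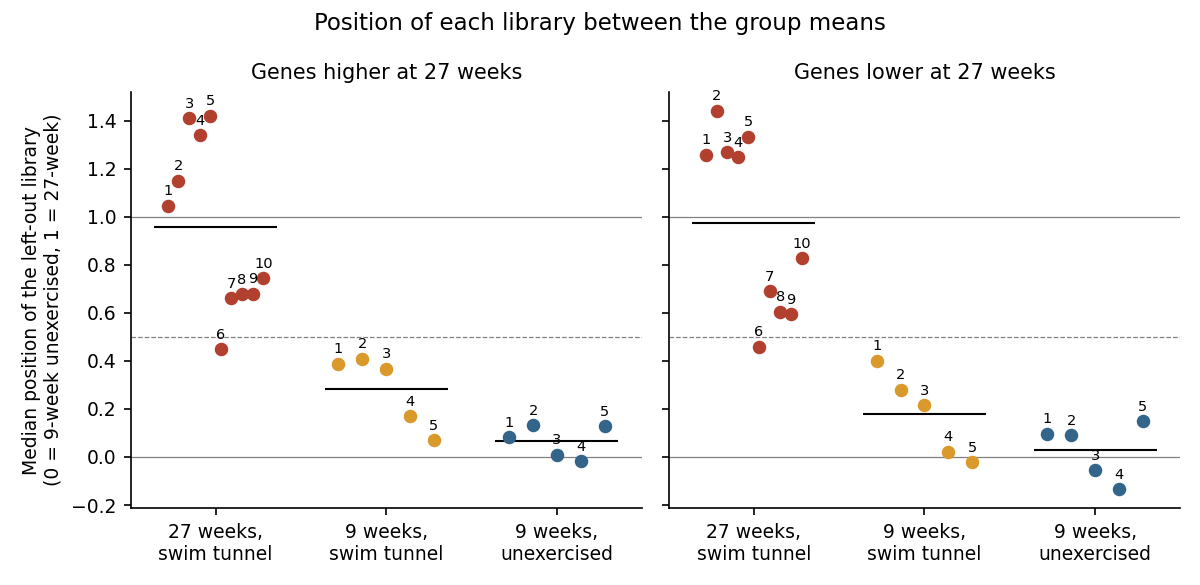
Median position of each library (TMM scaling), left out in turn, over the genes called higher (left panel) and lower (right panel), with numbers naming libraries and black lines giving group means. The 27-week libraries 1 to 5 lie above 1 and libraries 6 to 10 below it, and 9-week swim libraries 1 to 3 lie above every unexercised library while library 5 does not.

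This picture depended in part on the scaling factors, which ran higher in 27-week libraries 1 to 5. Positions were also taken on own library totals, over the same genes called with TMM scaling. There, 27-week libraries 1 to 5 had positions of 1.23 to 1.83 over higher genes and libraries 6 to 10 had 0.226 to 0.483. Over lower genes the 2 sets then overlapped, at 0.879 to 1.07 and 0.5003 to 1.097. The 9-week swim libraries ran from 0.0442 to 0.484 over higher genes, and the unexercised ones from -0.157 to 0.248. Over lower genes swim libraries 1 to 3, at 0.2998, 0.449 and 0.427, stayed past all unexercised libraries, the highest of which was at 0.188. Over higher genes on this scale swim libraries 1 and 4 lay clear of them, at 0.484 and 0.296. Library 2 was level with the highest unexercised library, both at 0.248, and libraries 3 and 5 were within the unexercised range, at 0.168 and 0.0442. The division of swim libraries 1 to 3 from 4 and 5 over higher genes was thus not seen on own totals.

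Tests of single genes were made between the 9-week swim group and each end. They set 10 libraries against 5 at the 27-week end and 5 against 5 at the unexercised end, so their numbers of calls differ in power and are not compared. These tests share libraries with the first contrast, the 27-week ones in the comparison of ages and the unexercised ones in the comparison of 9-week fish. Between 27-week and 9-week swim fish, 14.8% of all tested genes were higher and 16.9% lower (edgeR adjusted p under 0.05). Of the genes called in the first contrast, 1881 of the 3529 higher and 2142 of the 3146 lower genes were called in the same direction here. Between 9-week swim and unexercised fish, 0.108% of all tested genes were higher and 0.0721% lower. Of the genes called in the first contrast, 8 of the higher and 9 of the lower genes were called in the same direction there. With 1 higher and 1 lower gene called in the opposite direction these made 19 genes. This number ran from 1 to 65 when single libraries were left out and was 219 with DESeq2. It rose when either set of 27-week libraries was left out, to 415 without libraries 6 to 10. The 27-week libraries are not compared here, but they share the fit and its estimate of variation. The low number of 19 thus depends on the 27-week libraries fitted, and does not show that the 9-week groups were alike. The set of called genes also changed in these fits, and what raised the number was not tested. For 1642 higher and 995 lower genes the swim group differed from neither end by these tests, which does not show that it equalled either.

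A further test asked for each gene whether the 9-week swim group lay off the midpoint of the other groups, and 4.61% of all tested genes passed (edgeR adjusted p under 0.05). Among the called genes, 106 higher and 326 lower ones were nearer to the unexercised end. Nearer to the 27-week end were 12 higher and 10 lower ones, and 3411 and 2810 did not pass. These 22 genes nearer to the 27-week end numbered 43 when 27-week libraries 1 to 5 were left out, 80 when 6 to 10 were and 41 with DESeq2. They numbered 9 on own totals, and 13, 8, 7 and 14 when swim library 1, 2, 3 or 5 was left out. Leaving out unexercised library 2, 3 or 5 gave 10, 9 and 14. Without swim libraries 1 to 3 there were 0 by edgeR. At an unadjusted edgeR p under 0.05 there were then 43 of 6608 called genes, fewer than with all libraries. Counts at an unadjusted p include genes that pass by chance, so these 43 do not show genes that remained nearer to the 27-week end. With all libraries, those that passed were mostly extreme, since 101 of the 106 and 290 of the 326 had the swim mean beyond the unexercised mean, and all 12 and all 10 had it beyond the 27-week mean. In all, 454 called genes were nearer to one end, against 688 when 27-week libraries 1 to 5 were left out and 3691 when 6 to 10 were. The number was 178 without 9-week swim library 5, 199 without unexercised library 2 and 693 without 27-week library 6.

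In the fit with all libraries, few called genes had a swim group beyond an end by the tests. Beyond the 27-week end these were 0.085% of higher and 0.0636% of lower genes. Beyond the unexercised end they were 0.0283% and 0.0318%. Such genes were not counted in the other fits, where the number of calls between the 9-week groups changed. By means alone, 688 higher and 882 lower genes lay beyond the unexercised mean. In 3 of the higher genes the 9-week swim fish were above the 27-week fish by the test, at means of 37.8, 33.2 and 3.26 CPM in 27-week, 70.7, 78.3 and 5.64 CPM in 9-week swim and 16.1, 7.29 and 2.02 CPM in unexercised fish. In 2 of the lower genes the swim fish were below the 27-week fish, at 5.23 and 4.07 CPM in 27-week, 3.16 and 2.95 CPM in 9-week swim and 7.10 and 5.33 CPM in unexercised fish. Beyond the other end, 1 higher gene had 21.0 CPM in 27-week, 2.58 CPM in 9-week swim and 10.9 CPM in unexercised fish. Similarly, 1 lower gene had 1.52, 6.07 and 3.25 CPM in these groups. These genes were singled out after their values were seen.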

How the data were processed

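Per the labels' protocols, libraries of muscle RNA were made with the TruSeq RNA kit v2. Tools given in the submitters' processing notes are featureCounts 1.4.6-p4, STAR 2.4.1d and bcl2fastq 1.8.4. Settings, strandedness, annotation and genome build were not given in the sources used here. Overlapping, antisense and near-identical genes may share counts. The authors deposited raw read counts per gene for 26739 genes in 20 libraries, and all columns were used. They also deposited RPKM values, whose divisors ran through the library totals down the rows: implied gene lengths varied between libraries by a median SD of 8.55e-05 log2 units on that reading and by 0.248 with own totals. RPKM therefore served for gene lengths only.

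Groups came from the labels, and library numbers follow the order of sample codes within a group. Pairs of libraries of 1 group differed by at least 23.7 times the sampling noise (chi-square per degree of freedom), so none was taken for a duplicate. Counts were fitted in R 4.3.3 with edgeR 4.0.16 (filterByExpr with a minimum count of 10, TMM factors on own column totals, robust quasi-likelihood, all 3 groups, group as the only term). Contrasts were two-sided with Benjamini-Hochberg adjustment over 16653 genes and a threshold of 0.05; an SE is the absolute log2 fold change over the square root of F. For positions, log2 CPM took a prior count of 2. Alternatives included DESeq2 1.42.0 and limma 3.58.1 (voom). The tests were checked on simulated counts, in which expected levels did not differ between libraries of a group. Sets of libraries within a group were thus not part of that check.

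The naming rule took the largest fold changes among called genes that averaged 5 CPM or more in the higher group without overlap on own totals, 2 in each direction since no identifier could be matched to a symbol. Gene lists and cell type markers (fibre types, mitochondria, matrix, atrophy, ribosome, proteasome, blood, immune, fat, vessel, nerve and skin genes) had 0 members that could be found. The comparison, rules and alternatives were chosen with earlier results of these data known.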

Additional observations from a re-analysis of the deposited data

Results flagged for a closer look

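For the 4 named genes and the left-out positions, 18 groups of values were searched for a library apart from the others, using Dixon's test of the gap as a share of the range. Chance alone gives about 1 in 20 groups of normally distributed values, or 0.9 of 18 such groups. Whether the CPM values were so distributed was not tested. In 1 group a library stood apart. Nfu_g_1_013796 had 1.395 CPM in 9-week swim library 2, against 0.123 to 0.474 CPM in the other 4 swim libraries, a gap of 0.725 of the range.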

How the results depend on the processing

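The log2 fold changes of the 4 named genes kept their direction and passed the test in every alternative run. These genes had been picked for large changes without overlap, so a kept direction is no independent check. The weakest result was that of Nfu_g_1_013796 with limma-voom (adjusted p = 0.0379). The number of called genes, 6675, was 4099 at an adjusted p of 0.01 and 2553 with a 2-fold minimum. It was 4248 without 27-week libraries 1 to 5, 9238 without libraries 6 to 10 and 6040 on own totals. It ran from 5542 to 7148 when each library was left out in turn. The share of higher genes, 52.9%, was 51.5% with RLE scaling, 60.0% with upper-quartile scaling, 57.3% without 9-week swim libraries 1 to 3 and 56.4% without a low-count filter, and it ran from 50.9% to 56.4% over single libraries left out. It turned below 50% on own totals (48.6%), without the 50 most abundant genes (49.9%), at a threshold of 0.01 (48.1%), without 27-week libraries 1 to 5 (45.4%) or 6 to 10 (48.3%) and with limma-voom (48.7%). The cause was not tested. The median log2 fold change of all genes was 0.06, and 0.14 with upper-quartile scaling.

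The called genes that also differed between 9-week swim and unexercised fish, 19 in all, numbered 5 on own totals, 11 without a filter, 0 at a threshold of 0.01, 142.0 without 27-week libraries 1 to 5, 415 without libraries 6 to 10, 177 without 9-week swim libraries 4 and 5 and 219 with DESeq2. Without swim libraries 1 to 3 the number was 0 by edgeR. At an unadjusted edgeR p under 0.05 it was then 385 of 6608 called genes, against 1227 of 6675 with all libraries. Counts at an unadjusted p include genes that pass by chance, a share of about 0.05 of genes without any difference. The share over all tested genes was not counted, so these counts do not show a difference that remained. Over single libraries left out it ran from 1 (unexercised library 3) to 65 (swim library 4), with 12 without 27-week library 2, 9, 7 and 5 without swim libraries 1, 2 and 3, and 9, 8 and 10 without unexercised libraries 2, 4 and 5. Those that also differed between 27-week and 9-week swim fish numbered 2135 at 0.01, 2473 without 27-week libraries 1 to 5, 7145 without libraries 6 to 10 and 2078 without swim libraries 4 and 5. By the midpoint test, 454 genes were nearer one end, and 272 without a filter, 76 at 0.01, 688 without 27-week libraries 1 to 5, 3691 without libraries 6 to 10, 130 without swim libraries 1 to 3, 107 without swim libraries 4 and 5 and 763 with DESeq2. This number ran from 178 to 693 over single libraries left out, with 221, 240 and 178 without swim libraries 3, 4 and 5, 199, 294 and 267 without unexercised libraries 2, 3 and 5, and 693 without 27-week library 6.

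The median position over higher genes was 0.106 without swim libraries 1 to 3, a choice made after seeing the data, and between 0.207 and 0.395 in the other alternatives. Over lower genes it was 0.0249 without swim libraries 1 to 3, and between 0.112 and 0.2996 in the others. The swim mean lay within the unexercised range alone for 2356 of the 6675 called genes. The number was 2093 of 4248 without 27-week libraries 1 to 5 and 5189 of 9238 without libraries 6 to 10. In these fits the 27-week range rested on fewer libraries. No paired analysis was possible because the labels gave no shared replicate numbers. Genes below about 1 CPM rest on few counts, and their fold changes are correspondingly uncertain.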
